A study of Mus musculus with 6 samples.

Results

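miR-126 was followed as its 2 arms, mmu-miR-126-3p and mmu-miR-126-5p, in kidneys of young and aged mice. The members were the array entries that carry exactly these names, 2 of the 1247 mouse miRNAs on the array. RNA came from whole kidney of male C57BL/6 mice, a common inbred strain, aged 2 months (young, 3 arrays) or 20 months (aged, 3 arrays). No genotype, transgene or treatment is named for either group, and the groups share strain, sex and organ. The labels describe separate RNA preparations and tie none of them to an animal. The p-values here therefore rest on the spread between preparations, part of which may be technical. Each preparation was labelled with Cy3 and read on a 1-colour Agilent array.

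MicroRNAs are short RNAs that guide Argonaute proteins to partly complementary sites in messenger RNAs and repress them. miR-126 is processed from an intron of Egfl7, a gene expressed by endothelial cells, and is the miRNA most often used to mark the endothelium, the cell layer that lines blood vessels. Its 3p arm is known to repress Spred1 and Pik3r2, which restrain signalling downstream of VEGF, and Vcam1, an adhesion molecule. Its 5p arm is known to repress Dlk1, an inhibitor of Notch signalling. The kidney is rich in endothelium, in the glomerular tufts and in the capillaries around the tubules.

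The sequences show what the array name stands for, and they come from RefSeq on GRCm38.p6, whereas the array was designed on mm9. RefSeq names the locus Mir126a and lists the array's older name as a synonym, and 1 of the 2 members, the 3p arm, was matched to a mature entry. In miR-126a-3p the capitals mark the seed, bases 2 to 8. It spans chr2:26591402-26591423 on the plus strand.
miR-126a-3p: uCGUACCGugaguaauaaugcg
Its hairpin spans chr2:26591357-26591429 on the plus strand, inside Egfl7 and on the same strand as that gene. The capitals mark the 3p arm, bases 46 to 67 of 73.
Mir126a hairpin: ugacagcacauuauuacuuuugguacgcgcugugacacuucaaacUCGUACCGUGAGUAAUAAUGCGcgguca
RefSeq lists a further hairpin, Mir126b, on the opposite strand of the same stretch, and both its arms are shown because they overlap miR-126 and resemble it or pair with it. In miR-126b-3p the capitals mark bases identical to miR-126a-3p, 17 of that miRNA's 22. In miR-126b-5p they mark a run of 19 bases complementary to bases 1 to 19 of miR-126a-3p.
miR-126b-3p: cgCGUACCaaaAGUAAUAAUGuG
miR-126b-5p: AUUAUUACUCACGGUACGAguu

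The seed CGUACCG occurred in 1 of 1738 mature mouse entries, miR-126a-3p itself. Outside Mir126b, the closest mature sequence shared 13 bases with it when the sequences were aligned with shifts of up to 3 bases and no gaps. The array carried no entry named miR-126b, and whether that miRNA adds to the signal of the miR-126-3p probes was not tested.

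Each array held 52044 spots, of which 0 were saturated, and between 177 and 209 miRNAs were well above background by the scanner software's mark. All arrays lay on 1 slide. The young arrays and aged array 1 sat in its first row, and aged arrays 2 and 3 in its second row. Levels below are intensities divided by the 75th percentile of the probes detected on every array, and log2 values refer to these scaled intensities. Across the arrays that percentile was 1171 to 2054 units of intensity. Precision is limited by having 3 arrays per group.

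miR-126-3p gave a strong signal in both groups, and no difference with age was detectable. Its scaled level was 6.61 ± 0.355 in young kidney and 7.01 ± 0.331 in aged kidney (mean ± SD, n = 3 each). All 20 spots of both its probes were well above background on each array. The aged mean was 1.06-fold the young mean, and the 95% interval of that ratio ran from 0.928 to 1.21.

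By array, the log2 level of miR-126-3p was 2.77, 2.63 and 2.77 on young arrays 1, 2 and 3. On aged arrays 1, 2 and 3 it was 2.73, 2.85 and 2.84. Young array 2 was the lowest and aged arrays 2 and 3 were the highest, while aged array 1 lay between young array 2 and the other two young arrays. The groups therefore overlapped. The means were 2.72 ± 0.08 in young and 2.81 ± 0.07 in aged kidney (log2, mean ± SD, n = 3). The error from spot to spot within an array was 0.011 to 0.022 (SE, log2), smaller than the spread between arrays of a group.

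The log2 difference, aged minus young, was 0.08 ± 0.08 (SE), with a 95% interval of -0.11 to 0.28 and a limma adjusted p of 0.519 over 193 tested miRNAs. By the same test 7.77% of the tested miRNAs passed, 4.15% with higher and 3.63% with lower aged levels. These calls numbered 15, and 5 to 39 when 1 array was left out, with 39 without aged array 1. Of the 193 miRNAs, 57 had a smaller absolute difference than miR-126-3p. Over all tested miRNAs the median difference was -0.08 and the quartiles were -0.28 and 0.06, so miR-126-3p lay 0.17 above the median.

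The position on the slide moved with this value. Aged array 1, which shared the first row with the young arrays, exceeded the young mean by 0.0046 (log2), and aged arrays 2 and 3, in the second row, exceeded it by 0.13 and 0.12. With the slide row as a block in the limma fit the difference was again 0.0046 (adjusted p = 0.988). The second row held no young array, so the block takes its difference from aged array 1 alone, for every miRNA below too. Within the first row alone, where aged array 1 stood against the 3 young arrays, the fitted difference was -0.025, with percentile scaling redone on those arrays. Both fits on the slide row thus rest on aged array 1 and are no separate checks. Without aged array 1 the difference was 0.13, and without young array 2 it was 0.037. The part of the slide row in the difference was not tested, since the second row held aged arrays alone. In bulk kidney RNA, a change in the number of endothelial cells and a change in miR-126 per cell cannot be told apart.

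**Figure D1:**
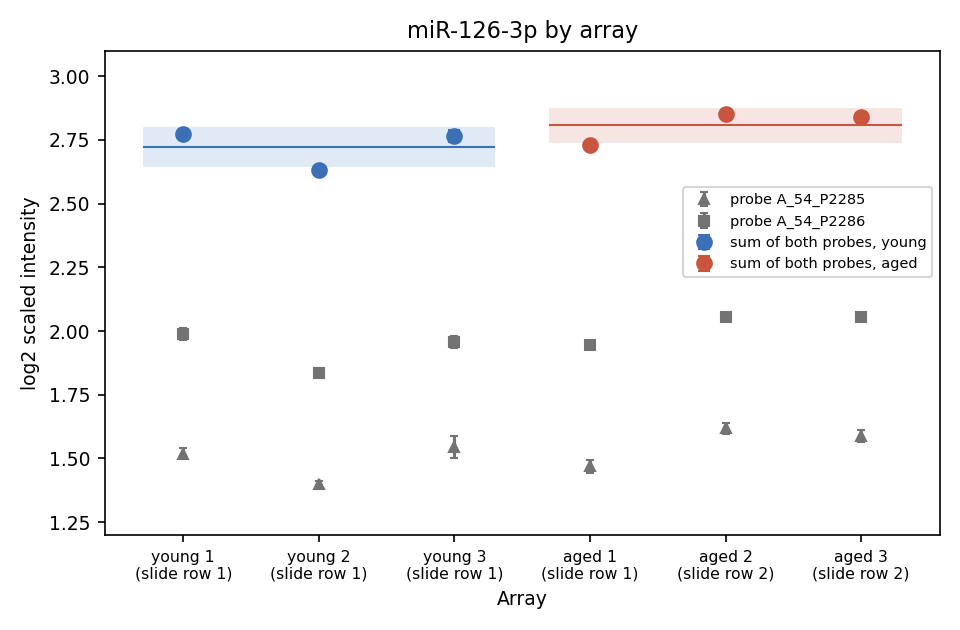
Level of miR-126-3p by array, as log2 scaled intensity, with the position on the slide under each array. Circles are the sum over both probes, triangles and squares are the single probes with the SE over their spots, and lines with shading are the group means ± SD (n = 3). The aged circles lie between 2.73 and 2.85 and the young ones between 2.63 and 2.77, so the groups overlap.

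Both probes of the 3p arm moved alike from array to array. Probe A_54_P2285 gave 1.52, 1.40 and 1.55 on the young arrays and 1.47, 1.62 and 1.59 on the aged arrays (log2 scaled intensity). Probe A_54_P2286 gave 1.99, 1.83 and 1.96 on the young arrays and 1.95, 2.06 and 2.06 on the aged arrays. On either probe young array 2 was the lowest and aged array 2 was at or beside the highest value. Both probes target the same miRNA and shared each hybridisation, so they are no independent replicates.

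The aged minus young difference was 0.07 ± 0.08 for A_54_P2285 (log2 ± SE, 95% interval -0.13 to 0.27, limma adjusted p = 0.602). It was 0.09 ± 0.08 for A_54_P2286 (95% interval -0.10 to 0.29, limma adjusted p = 0.487). Neither of the 2 passed the test, beside 5.37% of 354 tested probes. The coefficient of variation over the spots of a probe was 3.43% to 13.2%, the highest being A_54_P2285 on young array 3.

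Before any scaling by the percentile, the summed intensity of miR-126-3p was 9664, 7463 and 8102 units on the young arrays. It was 7759, 14836 and 9203 units on the aged arrays. Aged array 2 stood far above the rest on this scale, and it was also the array with the highest 75th percentile, 2054 units. After scaling, its level differed from that of aged array 3 by less than the spread within either group.

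The authors' deposited table, on a log2 scale, listed miR-126-3p at 5.34, 5.16 and 5.27 in young kidney and at 5.31, 5.59 and 5.47 in aged kidney. The groups overlapped there too, with aged array 1 inside the young range. On each array these values differ from log2 of the total gene signal of the scanner software by 1 constant, to within 1.02e-05 for all 1268 features. Their aged minus young difference, fitted with limma, was 0.20 (adjusted p = 0.343). The statistic behind that constant is unknown here.

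The 5p arm, miR-126-5p, was not well above background on any of the 6 arrays. Its level was set to the floor of -5.22 (log2) on every array, it did not enter the test, and no fold is given for it. In the authors' deposited table it stood at the lowest value of the column on each array. Its signal is described from the intensities of its spots alone.

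Probe A_54_P1035 of the 5p arm had mean intensities of 8.99, 10.5 and 10.4 units on the young arrays and 6.88, 10.5 and 8.34 units on the aged arrays. Probe A_54_P4367 had 3.19, 3.42 and 2.53 units on the young arrays and 4.62, 4.71 and 5.18 units on the aged arrays. Negative control spots averaged 2.99, 2.49 and 3.12 units on the young arrays and 2.38, 2.86 and 3.55 units on the aged arrays. The dimmest probe that was well above background had between 30.3 and 38.6 units, so both 5p probes lay between the controls and that limit or at the controls.

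The first of these probes exceeded the mean of the negative controls on all 6 arrays, by 4.50 to 7.996 units. The second did so on 5 arrays, with differences from -0.59 to 2.24 units. The SD over negative control spots was 5.32 to 7.73 units. Of the 40 spots of miR-126-5p, 32.5% to 57.5% were marked positive and significant on an array, against 23.7% to 29.1% of the negative control spots. The probes differed in this: 8 to 16 of 20 spots were so marked on A_54_P1035, and 5 to 7 of 20 on A_54_P4367. Spots well above background numbered 0 of 40 on 5 arrays and 3 of 40 (7.5%) on young array 3, all 3 on A_54_P1035.

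Between ages, the mean intensity of A_54_P1035 differed by -1.40 units with overlapping groups (exact two-sided permutation p = 0.3). With its outlier spots kept, each aged array lay below each young one (exact two-sided permutation p = 0.1). The mean intensity of A_54_P4367 differed by 1.79 units and its groups did not overlap (exact two-sided permutation p = 0.1, the smallest that 3 against 3 arrays allow). The intensities of both probes were not divided by the percentile, which was 1203 units on young array 2 and 2054 on aged array 2. Overlap or its absence here thus refers to unscaled values only. With its outlier spots kept, each aged array of A_54_P4367 lay above each young one as well (exact two-sided permutation p = 0.1). The 2 probes of the arm thus differed in opposite directions with the outlier spots left out or kept. With 3 arrays per group this test cannot pass a threshold of 0.05, so it leaves a difference of the 5p arm between ages undecided.

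**Figure D2:**
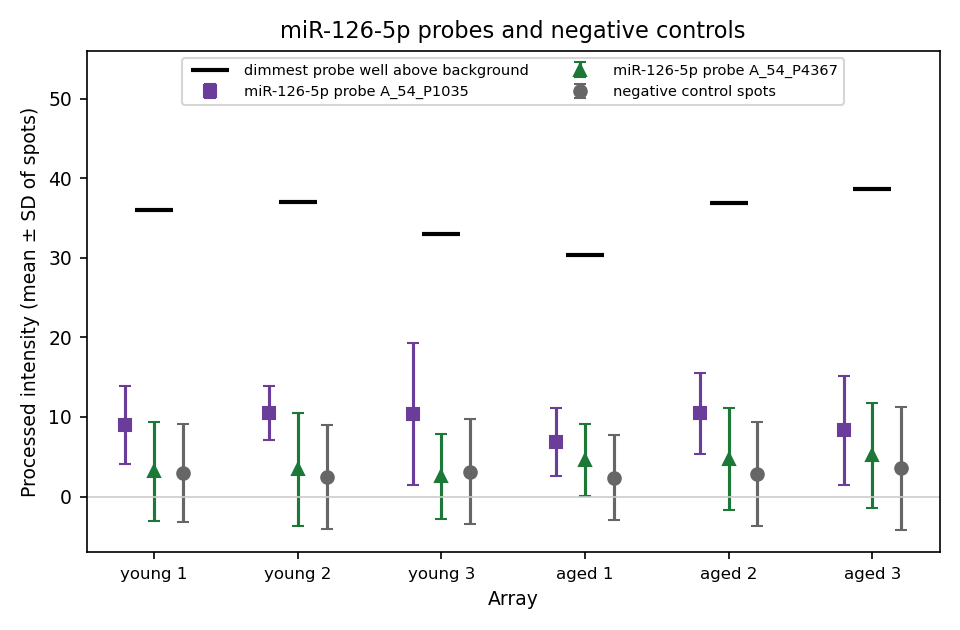
Intensity of the miR-126-5p probes by array, as the mean ± SD over spots that were not outliers, beside the negative control spots and the dimmest probe well above background. The purple probe lies between 6.88 and 10.5 units, above the controls on all 6 arrays, and the green probe lies at or near the controls. Both stay under the black bars at 30.3 to 38.6 units.

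Because the 5p arm lay below the limit, no ratio of the arms of miR-126 was formed. Of the 422 hairpin names with both arms on the array, 49 (11.6%) had the 3p arm alone tested, miR-126 among them. A further 65 (15.4%) had the 5p arm alone, 12 (2.84%) had both arms, and 296 (70.1%) had neither. Among the 12 hairpins with both arms, 0 changed their arm ratio with age by limma (0% of those tested), and 0 had an unadjusted p under 0.05.

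miR-126-3p was next set among 15 miRNAs linked to endothelium in the literature, a list that includes both its arms. Of these, 12 were tested and 0 passed the limma test, against 7.77% of all tested miRNAs. By unadjusted p, 1 of the 12 lay under 0.05, against 25.4% of all tested miRNAs. Aged levels were nominally higher for 6 and lower for 6, and the median difference was 0.01, against -0.08 over all tested miRNAs. The groups did not overlap for 3 of the 12, against 30.6% of all tested miRNAs. miR-126-5p and miR-217-5p were well above background on 0 arrays and miR-296-5p on 3 of 6, so these were not tested. Most of the listed miRNAs are also made by other kidney cells.

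miR-130a-3p, known to repress the anti-angiogenic homeobox genes Gax and Hoxa5, had the largest difference of the list, 0.30 ± 0.10 (log2 ± SE, 95% interval 0.07 to 0.54). Its means were 1.48 in young and 1.78 in aged kidney, its groups did not overlap, and its limma adjusted p was 0.1001. Of 24 alternatives it passed the threshold in 2, without aged array 1 (difference 0.38, limma adjusted p = 0.0471) and with scaling to the median of detected probes (0.44, limma adjusted p = 0.0458). With the slide row as a block the difference was 0.17 (limma adjusted p = 0.572), and within the first row it was 0.14. Both fits set aged array 1 alone against the young arrays.

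miR-221-3p and miR-222-3p, which come from 1 cluster and repress the stem cell factor receptor Kit, differed by 0.13 ± 0.08 and -0.00 ± 0.13 (log2 ± SE). miR-92a-3p, known to restrain vessel growth, differed by 0.01 ± 0.12. The 5 miRNAs of the miR-23, miR-27 and miR-24 clusters differed by 0.11 (miR-23a-3p), -0.00 (miR-23b-3p), 0.02 (miR-24-3p), -0.04 (miR-27a-3p) and -0.14 (miR-27b-3p), on the log2 scale. The Hox cluster miRNA miR-10a-5p differed by -0.10 ± 0.09, and miR-100-5p, known to repress Mtor, by -0.16 ± 0.08. The groups of miR-27b-3p and miR-100-5p did not overlap, with lower aged levels, and their limma adjusted p was 0.268 and 0.239. For the members of this paragraph the limma adjusted p lay between 0.239 and 0.994. The sign of several of these differences turned with the scaling, as listed in the closing section.

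**Figure D3:**
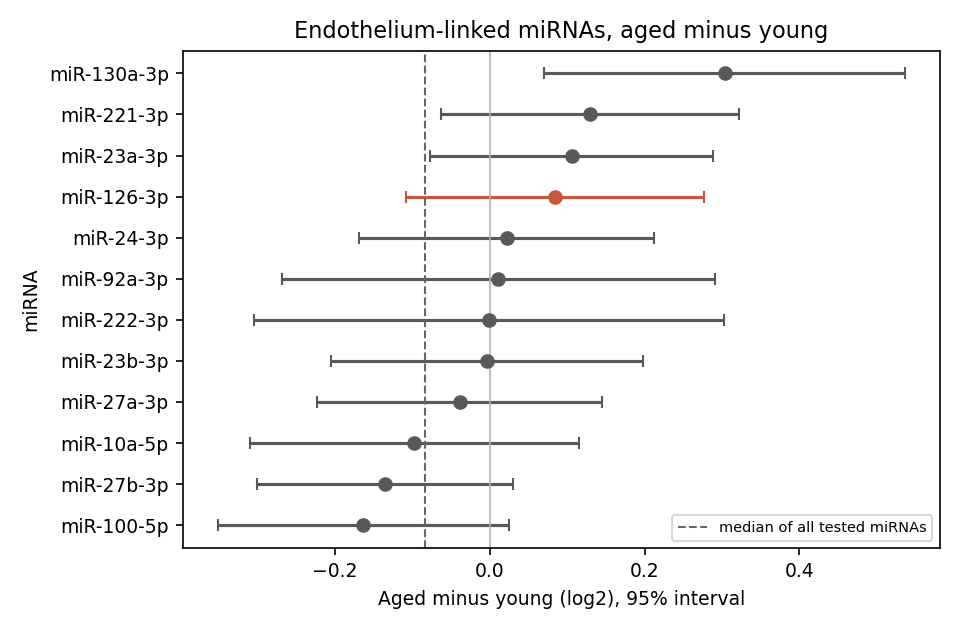
Aged minus young difference (log2) of the 12 tested endothelium-linked miRNAs, with 95% intervals, miR-126-3p in red. The dashed line is the median of all tested miRNAs, -0.08. The interval of miR-126-3p, -0.11 to 0.28, includes 0, and that of miR-130a-3p, 0.07 to 0.54, does not.

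Within an array, the level of miR-126-3p relative to markers of other cell types is free of a common scaling factor. The log2 ratio of miR-126-3p to the median of each of 6 lists was compared between ages. With 3 against 3 arrays an exact permutation test cannot go below p = 0.1, so none of these ratios could pass a threshold of 0.05. Each ratio moves with the list as well as with miR-126-3p, and the lists' own values are given beside it. The ratios to single members were added after seeing the data. How often a ratio of miR-126-3p to any tested miRNA did not overlap between groups was not computed. Non-overlap of a ratio below therefore has no share to be set against. For levels, the groups did not overlap for 30.6% of all tested miRNAs.

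Against the other 11 tested endothelium-linked miRNAs, the log2 ratio was 1.84, 1.79 and 1.84 on the young arrays and 1.80, 1.96 and 2.07 on the aged arrays. Aged array 1 lay inside the young range and the groups overlapped. The difference was 0.12 (exact two-sided permutation p = 0.3, adjusted over 6 ratios 0.3), and it was 0.19 without aged array 1. The median of the list was miR-27a-3p on all 6 arrays, and the ratios to single members differed by -0.22, for miR-130a-3p, to 0.25, for miR-100-5p. The summed scaled level of those 11 miRNAs was 20.1 to 22.2 in young and 20.8 to 22.6 in aged kidney.

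Against the 5 miRNAs of the epithelial miR-200 family the log2 ratio was 1.38, 1.33 and 1.26 in young and 1.60, 1.49 and 1.52 in aged kidney. Every aged array lay above every young one, with a difference of 0.21 (exact two-sided permutation p = 0.1, adjusted 0.15). The family itself had a summed level of 8.81 to 9.76 in young and 7.66 to 8.70 in aged kidney, and its median difference was -0.18. Aged levels were nominally lower for all 5 tested members, and 2 had an unadjusted p under 0.05 (25.4% over all tested miRNAs). The groups did not overlap for 3 of the 5 (30.6% over all tested miRNAs). By limma 1 of the 5 passed, miR-141-3p, lower by 0.38 ± 0.08 (log2 ± SE, limma adjusted p = 0.0415), beside 3.63% of all tested miRNAs with a called fall. The limma call of miR-141-3p was lost without any 1 of young arrays 1, 2 and 3 or aged arrays 2 and 3 (-0.43 to -0.29, adjusted p 0.0585 to 0.222). The slide row as a block (-0.39) and the first row alone (-0.42) both set aged array 1 alone against the young arrays. With the row block the call was also lost (limma adjusted p = 0.205). Scaling to the median, quantile normalization, no scaling, normexp, the authors' values, no detection filter and keeping outlier spots ended it as well. Its difference turned to 0.031 when all probes entered the percentile, which shifted the median of the tested miRNAs by 0.41.

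Against 3 erythroid miRNAs the log2 ratio was 3.91, 3.78 and 4.01 in young and 4.29, 4.48 and 5.36 in aged kidney. The groups did not overlap, and aged array 3 was the highest. The difference was 0.81 (exact two-sided permutation p = 0.1, adjusted 0.15), and without 1 array it ranged from 0.49, without aged array 3, to 1.02, without aged array 1. The median of the list was miR-144-3p on all 6 arrays, so this is the ratio to that miRNA. The ratio to miR-451a was higher by 0.43 and that to miR-3107-5p by 0.64, and neither overlapped between groups. Red cells carry these miRNAs, whose summed level was 8.37 to 9.39 in young and 6.37 to 7.17 in aged kidney. Of the list's 5 members 3 were tested, 0 passed the limma test, 3 had an unadjusted p under 0.05 (25.4% over all tested miRNAs) and the median difference was -0.56. The smallest p was that of miR-3107-5p, the array's name for miR-486-5p, with a difference of -0.56 ± 0.14 (log2 ± SE, limma adjusted p = 0.0528). Of 24 alternatives it passed in 4, among them without aged array 1 (-0.65, limma adjusted p = 0.0195). Its difference was -0.37 with the slide row as a block (limma adjusted p = 0.288) and -0.15 when all probes entered the percentile (limma adjusted p = 0.749).

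Against 3 tubule miRNAs the log2 ratio was 1.63, 1.53 and 1.55 in young and 1.44, 1.38 and 1.30 in aged kidney. Every aged array lay below every young one, with a difference of -0.20 (exact two-sided permutation p = 0.1, adjusted 0.15). The median of the list was miR-194-5p on all 6 arrays, so this is the ratio to that miRNA. The ratio to miR-192-5p differed by -0.059 and that to miR-204-5p by 0.12, both with overlapping groups. miR-192-5p, miR-194-5p and miR-204-5p were well above background on all 6 arrays, and miR-215-5p was on 0 arrays. Their summed level was 5.97 to 6.85 in young and 6.48 to 7.90 in aged kidney. Of the 3, 0 passed the limma test and 1 had an unadjusted p under 0.05 (25.4% over all tested miRNAs), with a median difference of 0.14, and miR-194-5p had the smallest p, with a difference of 0.28 ± 0.09 (log2 ± SE, limma adjusted p = 0.104). It passed without aged array 1 (0.37, limma adjusted p = 0.0421). With the slide row as a block it was 0.13 (limma adjusted p = 0.658), and within the first row it was 0.10. Both fits set aged array 1 alone against the young arrays.

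Against 6 miRNAs of smooth muscle and stroma the log2 ratio was 4.42, 4.27 and 4.31 in young and 4.09, 4.17 and 4.23 in aged kidney. The groups did not overlap, with lower aged ratios and a difference of -0.17 (exact two-sided permutation p = 0.1, adjusted 0.15). The list median was the mean of miR-199b-5p and miR-199a-5p on the young arrays, and of miR-143-3p and miR-199a-5p on the aged arrays. The reference of this ratio thus changed between the groups. With the brightest probe of each miRNA in place of the sum, the difference was -0.057 (exact two-sided permutation p = 0.5). The list's summed level was 2.47 to 2.62 in young and 2.89 to 3.13 in aged kidney. Of its 9 members 6 were tested and 2 rose, miR-199a-3p and miR-199a-5p, beside 4.15% of all tested miRNAs with a called rise. Those are both arms of the same hairpin name, so the members counted in this list are not all independent. The list did not move as one: aged levels were nominally higher for 4 and lower for 2, all 6 had an unadjusted p under 0.05 (25.4% over all tested miRNAs), and the median difference was 0.32. The 2 with lower aged levels were miR-143-3p and miR-145a-5p, known from smooth muscle, at -0.27 ± 0.09 and -0.25 ± 0.09 (log2 ± SE, limma adjusted p = 0.120 and 0.149), picked out after their values were seen. These turned to 0.14 and 0.16 when all probes entered the percentile. The ratio of miR-126-3p to either was higher in aged kidney, by 0.36 and 0.34, and its ratio to the other 4 was lower, by 0.21 to 0.32 on the log2 scale. The smallest p was that of miR-199a-5p, with a difference of 0.34 ± 0.06 (log2 ± SE, limma adjusted p = 0.0258). Its limma call was lost without any 1 of young arrays 1, 2 and 3 or aged arrays 2 and 3 (0.33 to 0.40, adjusted p 0.0585 to 0.195). The slide row as a block (0.33) and the first row alone (0.30) both set aged array 1 alone against the young arrays. The call was also lost with the row block (limma adjusted p = 0.205), without scaling, with normexp and when all probes entered the percentile.

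Against 5 leukocyte and platelet miRNAs the log2 ratio was 5.27, 5.05 and 4.88 in young and 4.64, 4.89 and 4.93 in aged kidney. The groups overlapped, with a difference of -0.24 (exact two-sided permutation p = 0.3, adjusted 0.3). It was -0.40 without aged array 3, -0.14 without young array 1, -0.15 without aged array 1 and -0.14 with the mean of log2 values over probes. The list median was miR-223-3p, miR-142-3p or miR-146a-5p, on 2 arrays each, so the reference changed from array to array. Ratios to the 5 single members differed by -0.47, for miR-223-3p, to -0.16, for miR-146a-5p. Only that to miR-223-3p did not overlap between groups. This list bears on miR-126 directly, since platelets and some blood progenitors also carry it. Its summed level was 0.767 to 0.876 in young and 0.978 to 1.17 in aged kidney. Of its 6 members 5 were tested, 0 passed the limma test, 3 had an unadjusted p under 0.05 (25.4% over all tested miRNAs) and the median difference was 0.38. miR-223-3p, a myeloid miRNA, had the smallest p, with a difference of 0.55 ± 0.13 (log2 ± SE, limma adjusted p = 0.0510). Of 24 alternatives it passed in 10, among them without young array 3 (0.67, limma adjusted p = 0.0461) and without aged array 1 (0.53, limma adjusted p = 0.0471). With the slide row as a block its difference was 0.60 (limma adjusted p = 0.144). The part of blood cells in the level of miR-126-3p was not tested.

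**Figure D4:**
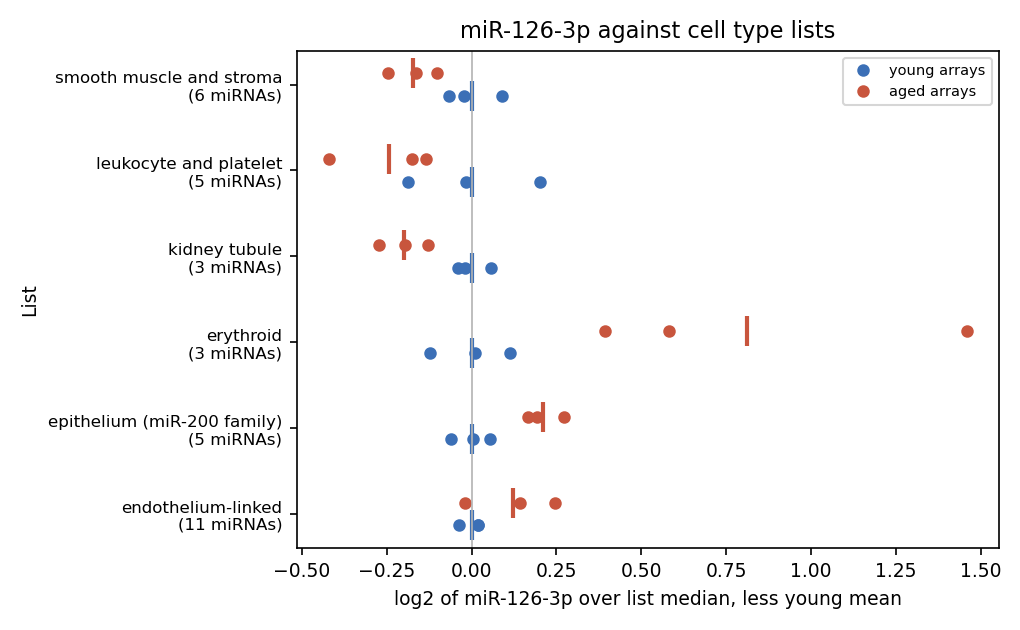
Log2 ratio of miR-126-3p to the median of each list within an array, less the young mean of that ratio. Dots are arrays, blue for young and red for aged, and vertical ticks are group means (n = 3). Aged dots lie to the right of young dots for the epithelial and erythroid lists and to the left for the tubule and stromal lists, and they overlap for the other two lists.

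The level of miR-126-3p across the 6 arrays was most like that of miR-203-3p, miR-16-5p, miR-23a-3p, let-7a-5p and miR-192-5p, by Pearson's r of 0.977, 0.912, 0.907, 0.904 and 0.897 in that order. These r are descriptions over 6 arrays that share their scaling, and the median r over all other tested miRNAs was -0.01. miR-23a-3p is the 1 miRNA of these 5 that is also in the endothelium-linked list, where r with miR-126-3p ran from -0.31 for miR-27b-3p to 0.91 for miR-23a-3p. Their aged minus young differences (log2 ± SE) were 0.15 ± 0.10 for miR-203-3p, 0.04 ± 0.08 for miR-16-5p, 0.11 ± 0.08 for miR-23a-3p, 0.09 ± 0.09 for let-7a-5p and 0.14 ± 0.11 for miR-192-5p. All 5 had their lowest level on young array 2, as miR-126-3p did. Of these 5, 4 stayed among the nearest 5 with scaling to the median of detected probes, 2 with the percentile over all probes, 2 without scaling and 0 after quantile normalization, a check chosen after seeing the data.

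**Figure D5:**
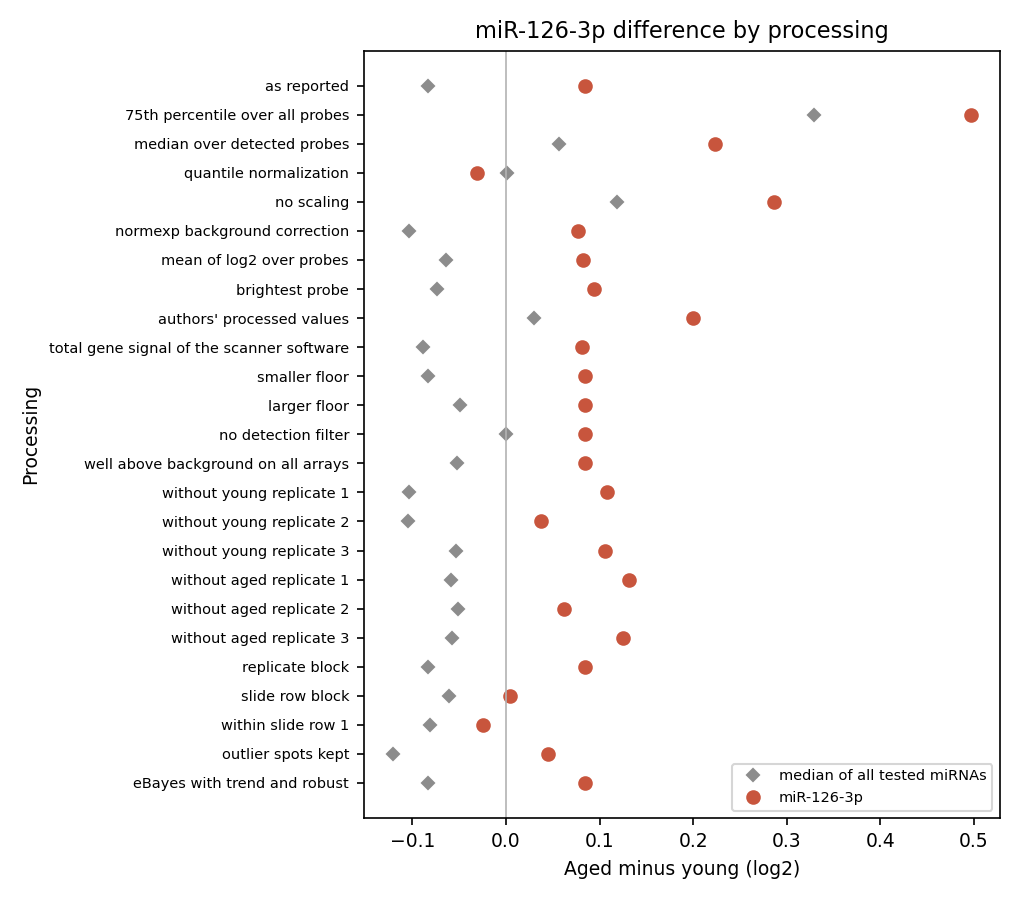
Aged minus young difference (log2) of miR-126-3p (red circles) and median of all tested miRNAs (grey diamonds) under each processing. The difference ranges from -0.031 to 0.50 over the alternatives, and where the scaling moves the grey diamond the red circle moves with it, apart from quantile normalization and the fits on the slide row, which bring miR-126-3p near 0.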

How the data were processed

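Agilent arrays of design 046065 were quantified in Feature Extraction 11.5.1.1, per the file headers. The deposited spot values are fluorescence intensity, background-corrected by the scanner software per the file headers and not scaled between arrays. The authors also deposited a table of log2 values per miRNA.

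For each probe the processed intensity was averaged without outlier spots and divided by a scale factor, the 75th percentile of the 315 probes that were well above background throughout. Values were summed over the probes of a miRNA, floored and put on a log2 scale. A probe counted as well above background when over 50% of its non-outlier spots were so marked. The floor came from the lowest scaled signal among such probes, as the median of the 6 arrays. The 193 tested miRNAs had such a probe on all 3 arrays of at least 1 group. limma 3.58.1 in R 4.3.3 (lmFit, eBayes) compared the groups with no other term, p-values were adjusted by Benjamini-Hochberg, and the threshold was 0.05. Single probes and arm ratios were fitted alike. Ratios to lists were compared by exact permutation. The fits were tested on simulated data with independent normal noise, without a floor or a slide row, so that test does not bear on these.

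Named were both arms, each tested member of the endothelium-linked list and the 5 miRNAs nearest to miR-126-3p by Pearson's r. Of other lists the member with the smallest p was named. After their values were seen, miR-199a-3p, miR-143-3p, miR-145a-5p and list members with ratios of their own or setting a list median were named too. The members and lists were chosen with earlier results of these data known. Array names that differ from the list names (miR-145a, miR-3107-5p) were matched to them through RefSeq synonyms on GRCm38.p6. Alternatives covered scaling, background, probe summary, floor, detection filter, outlier spots, single arrays, slide row and replicate number. The normexp alternative (offset 50) used the median spot signal. Input was read with data.table, version 1.17.8, and jsonlite 2.0.0, and figures were drawn with matplotlib 3.10.9 and pandas 2.3.3.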

Additional observations from a re-analysis of the deposited data

How the results depend on the processing

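The difference of miR-126-3p passed the limma threshold under 0 of 24 alternatives (adjusted p 0.209 to 0.988). It kept its direction in 22, from 0.0046 to 0.50, and turned to -0.031 with quantile normalization and to -0.025 within slide row 1. Not all of the 22 are separate checks of direction. Both floors, both detection filters, the replicate block and the trend and robust options of eBayes left the estimate at 0.08, unchanged. Taking the percentile from all probes gave 0.50, and scaling to the median of detected probes 0.22. Without scaling it was 0.29. These 3 settings shift all miRNAs of an array alike, and the median over the tested miRNAs moved by 0.41, 0.14 and 0.20. Relative to that median the difference was 0.17 as reported, 0.065 with the row block, 0.057 within row 1 and -0.033 with quantile normalization. It was 0.08 with a replicate block (adjusted p = 0.567). The labels state no paired design, so the numbers were not taken as pairs. Deviations from the group mean had r of 0.116, -0.579 and 0.311 between same-numbered arrays. Between arrays of unlike number r ran from -0.479 to 0.404. With deviations centred within 3 arrays these r depend on each other, so they cannot decide on pairing. Leaving out 1 array gave 0.037 to 0.13.

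The count past the threshold was 15 of 193 miRNAs. It was 2 without scaling, 4 with normexp, 6 without a detection filter, 3 with a replicate block and 5 with the slide row as a block. It was 6, 5 and 8 without young array 1, 2 or 3 and 39, 9 and 9 without aged array 1, 2 or 3. Of 354 probes 19 passed, against 4 without scaling, 11 with normexp, 2 with either block, 9 within slide row 1 and 3 to 53 without 1 array. A_54_P2286 turned to -0.089 with quantile normalization and to -0.0086 within row 1, and A_54_P2285 to -0.018 with the row block and -0.047 within row 1. Hairpins with a changed arm ratio numbered 1 with the larger floor, 5 without a filter and 0 without any 1 array. The causes were not tested.

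Signs of other named miRNAs turned as follows. With the percentile over all probes: miR-100-5p 0.25, miR-10a-5p 0.32, miR-222-3p 0.41, miR-23b-3p 0.41, miR-27a-3p 0.37, miR-27b-3p 0.28, miR-141-3p 0.031, miR-143-3p 0.14, miR-145a-5p 0.16. With the median: miR-10a-5p 0.043, miR-222-3p 0.14, miR-23b-3p 0.14, miR-27a-3p 0.10, miR-27b-3p 0.0045. With quantile normalization: miR-222-3p 0.22, miR-23b-3p 0.034, miR-16-5p -0.017. Without scaling: miR-100-5p 0.039, miR-10a-5p 0.10, miR-222-3p 0.20, miR-23b-3p 0.20, miR-27a-3p 0.16, miR-27b-3p 0.067. With the authors' values: miR-10a-5p 0.018, miR-222-3p 0.11, miR-23b-3p 0.11, miR-27a-3p 0.076. With normexp miR-92a-3p was -0.051, with the mean of log2 values miR-23b-3p 0.014, and with the brightest probe miR-222-3p 0.024. With outliers kept, miR-24-3p was -0.024 and miR-92a-3p -0.017. With the row block: miR-222-3p 0.036, miR-24-3p -0.054, miR-27a-3p 0.023, miR-16-5p -0.048, let-7a-5p -0.038, miR-192-5p -0.035. Within row 1: miR-222-3p 0.0062, miR-24-3p -0.084, miR-16-5p -0.077, let-7a-5p -0.067, miR-192-5p -0.065. Without 1 array: miR-92a-3p -0.028 to 0.12, miR-222-3p -0.050 to 0.12, miR-24-3p -0.016 to 0.067, miR-23b-3p -0.039 to 0.046, miR-27a-3p -0.067 to 0.063, miR-16-5p -0.0041 to 0.090. The 6 list ratios kept their direction under all 12 alternatives run on each, but these are not all separate checks. The authors' values, the total gene signal and both floors left each ratio as reported. The others changed the probe summary or left out 1 array, and none addressed the slide row. The ratio to smooth muscle and stroma shrank from -0.17 to -0.057 with the brightest probe (exact permutation p = 0.5). That to leukocytes and platelets shrank from -0.24 to -0.14 with the mean of log2 values. The replicate block ended the limma calls of miR-141-3p (adjusted p = 0.102) and miR-199a-5p (0.0789).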
